A study of Mus musculus with 21 samples.

Results

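The 8 genes described here, Timd2, Guca1a, Ppp2cb, Pheta1, Alppl2, Mtres1, Mfsd5 and Zc3hc1, were selected on measured values: a signal near background in mouse zygotes and a high signal at the 2-cell stage. They are 8 of 8527 genes tested on Illumina bead arrays, and the choice came with no numeric threshold. Because zygote and 2-cell signals chose the genes, those signals are given as a description with no test. The tests below use drug controls, transfer embryos, genomeless embryos and ES cells, whose arrays the choice did not use. Drug controls were intact embryos of the same age as the 2-cell embryos. They differed from them by -0.26 to 0.40 on the log2 scale over the 8 genes. Their high level thus largely followed from the choice, and comparisons with drug controls are not independent of it. Genomeless embryos held no genome, so a low level there of genes picked as low in zygotes also largely followed from the choice. Comparisons with genomeless embryos are therefore not independent of it either.

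There were 21 arrays in 8 groups, spread over 6 chips, and RNA of 20 pooled embryos, cultured in KSOM medium, went onto each embryo array. The groups without micromanipulation were interphase zygotes, taken 24 to 28 h after the mothers received hCG (3 arrays), zygotes held in mitosis with nocodazole at 32 to 34 h (3 arrays), and 2-cell embryos at 48 to 50 h (2 arrays). Drug controls (3 arrays) were intact embryos given nocodazole at mitosis and collected at 48 to 50 h. Genomeless embryos (2 arrays) had been enucleated and received no genome, and were taken 22 to 24 h later, at 48 to 50 h. Interphase transfer embryos (2 arrays) came from a zygote enucleated and used for transfer at interphase, and were also collected at 48 to 50 h. M phase transfer embryos (4 arrays) were collected 22 to 24 h after transfer, at the same 48 to 50 h. ES cells (2 arrays) were cultured pluripotent stem cells. The series title asks whether factors from the nucleus of the recipient cell are needed for reprogramming by nuclear transfer; the labels name no donor cell, mouse strain or ES cell line.

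The mouse zygote begins with RNA and protein stored in the oocyte, and its genome is largely silent. A weak wave of transcription in the late zygote is followed by the major wave at the 2-cell stage, while much of the stored maternal RNA is degraded. A transferred genome has to pass through the same switch, so genes that are off in the zygote and on at the 2-cell stage are a common read-out of it. The 8 genes belong to different pathways. Timd2 encodes a cell surface receptor of the TIM family that binds H-ferritin in mouse, Alppl2 the embryonic alkaline phosphatase, and Mfsd5 a membrane transporter of the major facilitator family. Guca1a encodes a calcium sensor best known for activating guanylate cyclase in photoreceptors, Ppp2cb the beta isoform of the catalytic subunit of protein phosphatase 2A, and Zc3hc1 an F-box protein (NIPA) known as a nuclear basket component and for its link to cyclin B1 degradation. Pheta1 encodes an endosomal partner of the phosphatase OCRL, and Mtres1 a mitochondrial RNA-binding factor known from human cells to protect mitochondrial transcription.

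The promoters of 6 of the genes are printed for a pattern described further on. Their CpG ratios and GC box matches, both explained below, divide the genes in the same way as their ES cell signals do. A promoter window here is 250 bases before to 50 bases after a RefSeq transcription start on build GRCm38.p6, read 5′ to 3′ on the gene's strand, and 7 of the 8 genes had one. Capitals mark matches, on either strand, to 5 motifs. The general promoter motifs searched were the TATA box, with the letters TATAA, and the box bound by the factor NF-Y, with the letters CCAAT. The third was the binding motif of Sp1, known as the GC box, with the letters GGGCGG. The remaining motifs were the core bound by Obox and Otx homeodomain proteins, with the letters GGATTA, and the core bound by Nr5a2, with the letters AAGGTCA. No matches overlap each other in the windows printed. The first 3 windows belong to genes that were lowest in ES cells and the last 3 to genes that were well detected there.
Timd2: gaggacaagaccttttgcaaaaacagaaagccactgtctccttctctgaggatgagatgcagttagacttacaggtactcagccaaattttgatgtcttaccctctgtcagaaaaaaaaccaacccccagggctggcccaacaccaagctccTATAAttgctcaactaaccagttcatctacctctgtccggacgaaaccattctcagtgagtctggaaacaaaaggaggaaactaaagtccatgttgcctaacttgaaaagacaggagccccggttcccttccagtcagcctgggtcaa
Guca1a: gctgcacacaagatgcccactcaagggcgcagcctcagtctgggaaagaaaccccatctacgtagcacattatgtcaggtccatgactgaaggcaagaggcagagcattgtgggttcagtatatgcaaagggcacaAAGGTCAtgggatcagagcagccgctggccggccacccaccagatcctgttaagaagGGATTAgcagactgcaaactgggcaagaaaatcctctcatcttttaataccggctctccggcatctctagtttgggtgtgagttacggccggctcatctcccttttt
Alppl2: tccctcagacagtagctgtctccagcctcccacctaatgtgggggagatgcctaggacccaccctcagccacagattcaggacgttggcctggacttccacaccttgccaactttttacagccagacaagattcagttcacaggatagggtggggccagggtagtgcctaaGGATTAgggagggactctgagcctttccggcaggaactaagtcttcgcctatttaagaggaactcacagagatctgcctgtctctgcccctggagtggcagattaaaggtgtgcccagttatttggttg
Pheta1: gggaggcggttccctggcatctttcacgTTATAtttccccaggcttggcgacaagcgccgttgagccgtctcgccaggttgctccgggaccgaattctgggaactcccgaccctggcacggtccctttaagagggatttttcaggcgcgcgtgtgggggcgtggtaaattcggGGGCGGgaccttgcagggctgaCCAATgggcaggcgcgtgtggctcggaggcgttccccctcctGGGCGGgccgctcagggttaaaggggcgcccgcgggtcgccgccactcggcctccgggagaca
Mfsd5: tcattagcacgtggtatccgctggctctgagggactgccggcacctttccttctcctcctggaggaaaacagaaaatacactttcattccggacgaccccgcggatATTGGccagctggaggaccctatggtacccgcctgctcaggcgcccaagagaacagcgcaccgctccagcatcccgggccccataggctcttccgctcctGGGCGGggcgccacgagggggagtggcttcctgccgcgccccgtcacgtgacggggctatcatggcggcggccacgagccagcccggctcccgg
Zc3hc1: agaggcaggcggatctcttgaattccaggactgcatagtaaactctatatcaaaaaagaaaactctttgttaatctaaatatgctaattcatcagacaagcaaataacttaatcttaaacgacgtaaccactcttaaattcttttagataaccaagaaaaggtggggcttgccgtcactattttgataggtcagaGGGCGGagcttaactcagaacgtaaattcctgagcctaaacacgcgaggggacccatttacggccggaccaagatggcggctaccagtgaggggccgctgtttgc

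These windows lie at chr11:46707055-46707354 on the minus strand (Timd2), chr17:47400557-47400856 on the minus strand (Guca1a), chr1:87089879-87090178 on the minus strand (Alppl2), chr5:121848747-121849046 on the plus strand (Pheta1), chr15:102279206-102279505 on the plus strand (Mfsd5) and chr6:30390971-30391270 on the minus strand (Zc3hc1). The ratio of observed to expected CpG dinucleotides, which is high in CpG island promoters, was 0.19 for Timd2, 0.39 for Guca1a and 0.14 for Alppl2. It was 0.91 for Pheta1, 0.80 for Mfsd5 and 0.84 for Zc3hc1, and 0.60 for the Mtres1 window (chr10:43540969-43541268, minus strand). A second Timd2 start (chr11:46698781-46699080, minus strand) had 0.22. Over all 32851 RefSeq mouse windows the quartiles were 0.18, 0.38 and 0.75, so Timd2 and Alppl2 lay below the median of all windows, Guca1a close to the median, and Pheta1, Mfsd5 and Zc3hc1 above the upper quartile. The ratio of Zc3hc1 came with 12 CpG dinucleotides and a GC content of 43.7%, under the lower quartile of 45.67%. Pheta1 and Mfsd5 had 30 and 26 CpG dinucleotides and a GC content of 66.7% and 66.0%. Timd2, Guca1a and Alppl2 had 3, 8 and 3 CpG dinucleotides and a GC content of 47.0%, 52.3% and 53.7%. The Ppp2cb gene spans chr8:33599621-33619804. The Guca1a gene spans chr17:47394557-47413514 and the Alppl2 gene chr1:87086690-87095934. Their windows thus lie at starts inside the gene, away from its 5′ end. The printed Timd2 window and those of Pheta1, Mtres1, Mfsd5 and Zc3hc1 lie at the 5′ end of the gene.

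Of the 8 windows of the 7 genes, 4 held GGGCGG, which 35.7% of all windows hold, and those 4 were Pheta1, Mtres1, Mfsd5 and Zc3hc1. TATAA was found in 3 windows, both of Timd2 and that of Pheta1, against 24.9% of all windows. CCAAT was found in 2, Pheta1 and Mfsd5, against 37.4%. GGATTA was found in 2, Guca1a and Alppl2, against 7.06%, and AAGGTCA in 1, Guca1a, against 4.72%. These matches describe letters in a window and are no evidence of binding.

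Each gene was read by 1 probe except Zc3hc1, for which 3 probes were on the array and the one with the highest mean was used. A probe counts as detected on an array where its deposited detection p-value was below 0.01. The signals given first for each gene are the deposited, background-subtracted and otherwise unscaled intensities, which differ between arrays with overall brightness. The mean signal over all probes was 96.85 to 175.91 on the arrays of zygotes, 2-cell embryos, drug controls and ES cells, but ranged from 73.0 to 687.57 in M phase transfer, 12.79 to 535.14 in interphase transfer and 11.25 to 334.78 in genomeless embryos. The brighter arrays of these 3 groups were on chip 5 and the dimmer on chip 6. Genomeless sample B and interphase transfer sample B were the dimmest arrays, with 2426 and 3412 probes detected against 6442 to 6849 in drug controls. Levels compared between groups are therefore log2 signals after quantile normalisation. A pair of mitotic zygote arrays (A, C) and a pair of drug control arrays (B, C) differed so little (SD of log2 differences over probes 0.117 and 0.12, against 0.28 to 1.477 in other pairs of a group) that each pair was averaged and counted as 1 sample, leaving 19 samples. In bulk RNA of pooled embryos, fewer embryos expressing a gene and less RNA per embryo cannot be told apart.

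**Figure D1:**
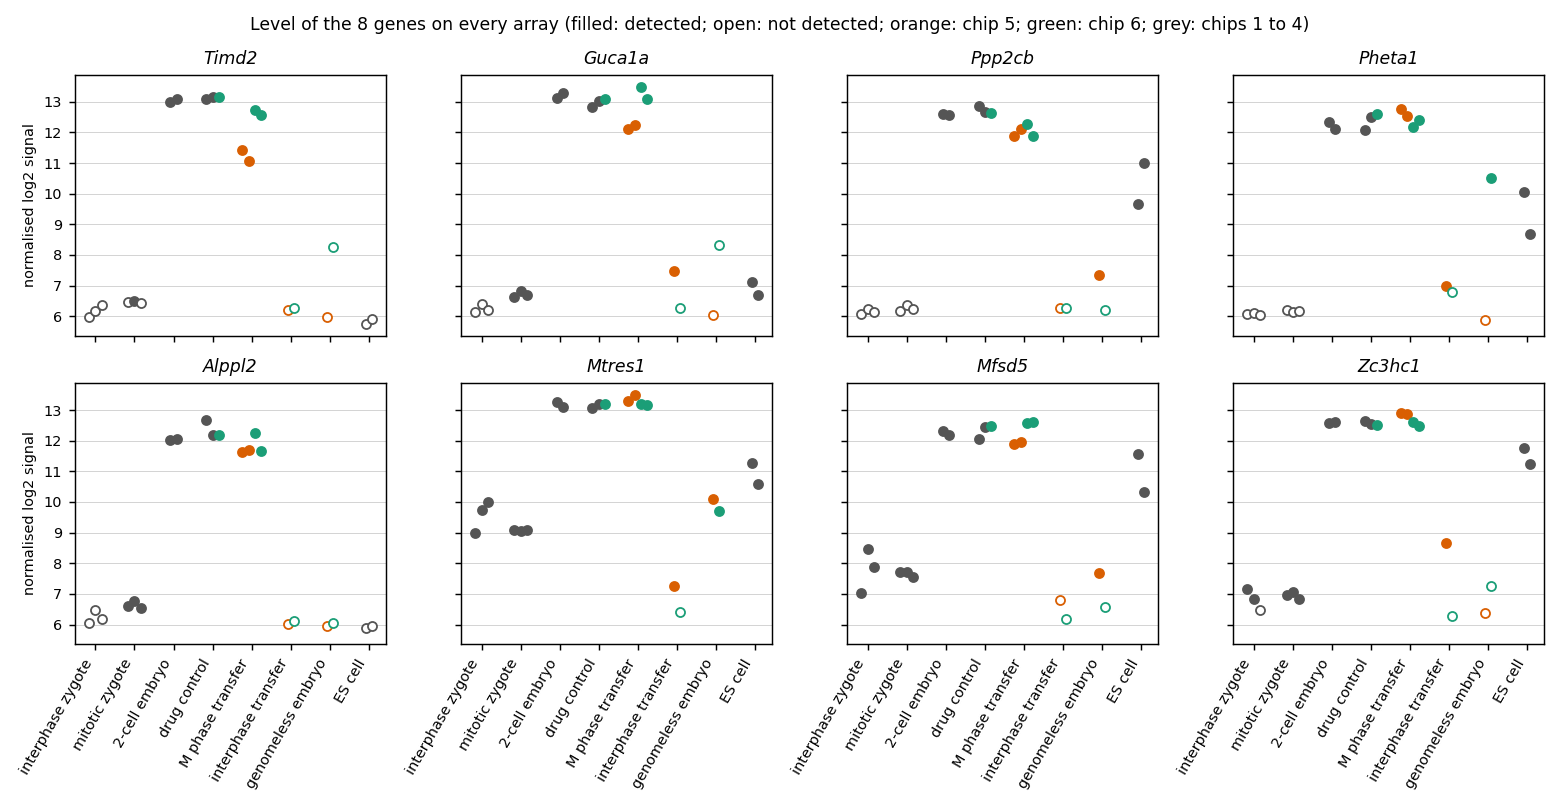
Level of each gene on every array: the horizontal axis gives the 8 groups, the vertical axis the quantile-normalised log2 signal, and each point is 1 array, filled where the probe was detected. All 8 genes are high in 2-cell embryos, drug controls and M phase transfer embryos (11.08 to 13.50) and lower in interphase transfer and genomeless embryos, with Pheta1 on 1 genomeless array at 10.51, while ES cells differ from gene to gene.

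Marker lists showed which RNA each group carried. Of 15 oocyte and maternal genes with a probe, the summed signal (scaled to an equal mean per array) was 72740 to 82837 on zygote arrays, 12695 to 14278 on 2-cell arrays and 12982 to 15811 on drug control arrays. It was 9599 to 18963 on M phase transfer arrays, 50519 to 86585 on interphase transfer arrays and 52679 to 57656 on genomeless arrays. The maternal RNA sum was thus high in the embryo groups where the 8 genes were low, and it was 3058 to 3500 in ES cells; its part in the results was not tested. Of 10 ES cell markers with a probe, 8 to 9 were detected on ES arrays (Fgf4 on neither), and their sum of 18887 to 21996 was above the 966 to 9011 of all other arrays. A source label of ES sample A names peripheral blood. Of 9 blood cell genes with a probe, 1 was detected on each ES array, Cd3e in both samples. The other blood cell genes, both globin genes and Ptprc included, were detected on neither. Of 10 cumulus cell genes, 0 to 2 were detected on any array.

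Among the genes of the cell surface and membranes, Timd2 showed the sharpest switch. Its signal was -2.0, 4.4 and 13.1 in interphase zygotes A to C and 14.8, 25.4 and 14.8 in mitotic zygotes A to C, and 1 of these 6 arrays (mitotic zygote B) passed detection. In 2-cell embryos A and B it was 5141 and 5179, and in drug controls A to C 5393, 6116 and 6127. The intact embryos at 48 to 50 h were all far above every zygote array. M phase transfer embryos A to D gave 9125, 6403, 5192 and 2542, interphase transfer embryos A and B 16.8 and 0.7, and genomeless embryos -13.5 and 9.1. In ES cells the signal was -7.1 and -3.2, at or below background. Timd2 was thus detected in intact and M phase transfer embryos of this age and on no interphase transfer, genomeless or ES array.

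Alppl2 followed a like pattern, with a lower signal than Timd2 in 2-cell embryos and drug controls. Its signal was 0.4, 17.6 and 4.5 in interphase zygotes and 22.1, 46.7 and 20.2 in mitotic zygotes, where all 3 arrays passed detection and no interphase array did. It reached 2357 and 2056 in 2-cell embryos and 4019, 2773 and 2552 in drug controls. Every intact embryo array at 48 to 50 h was thus over the highest zygote array, mitotic zygote B. In M phase transfer embryos it was 10296, 9599, 3830 and 1141. Interphase transfer embryos gave -9.3 and -0.2, genomeless embryos -16.9 and -0.8 and ES cells -4.7 and -2.2, none of them detected. No other of the 8 genes had a negative signal on every array of these 3 groups.

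Mfsd5 was not near background in zygotes. It was detected on all 6 zygote arrays, at 64.4, 203 and 146 in interphase and 104, 157 and 99.9 in mitotic zygotes, so the label of a gene silent before activation did not hold for it. In 2-cell embryos it was 2940 and 2313 and in drug controls 2566, 3554 and 3376. The 2-cell and drug control arrays overlapped, and both groups were above all zygotes. M phase transfer embryos gave 12187, 11218, 4814 and 2582, interphase transfer embryos 84.8 and 0.2 and genomeless embryos 130 and 1.8. Of the last 4 arrays only genomeless A passed detection. ES cells gave 2746 and 907, so ES sample A reached the unscaled signal of 2-cell embryos and ES sample B did not.

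Among the signalling and cell cycle genes, Guca1a was detected on all 3 mitotic zygote arrays (23.5, 52.6 and 30.3) and on no interphase zygote array (3.7, 14.9 and 5.3). It was 5834 and 6030 in 2-cell embryos and 4285, 5805 and 5853 in drug controls. The highest zygote array, mitotic zygote B, was thus far below every intact embryo at 48 to 50 h. M phase transfer embryos gave 13967, 13907, 8434 and 4347, interphase transfer embryos 206 and 0.8 and genomeless embryos -5.0 and 9.4. Interphase transfer A alone among the last 4 passed detection. ES cells gave 59.8 and 36.8, detected on both arrays but far under every drug control array.

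Ppp2cb was detected on no zygote array, at 0.8, 6.8 and 2.6 in interphase and 4.5, 15.6 and 5.9 in mitotic zygotes. It was 3774 and 3134 in 2-cell embryos, 4345, 4293 and 4043 in drug controls and 11978, 12666, 3902 and 1351 in M phase transfer embryos. The 3 drug control arrays lay within a narrow range, and all 5 arrays of intact embryos at 48 to 50 h were high. Interphase transfer embryos gave 24.2 and 0.8 and genomeless embryos 87.9 and 0.2, of which genomeless A passed detection. ES cells gave 694 and 1408, between the 2 extremes. The alpha isoform of the same catalytic subunit, Ppp2ca, differed from it in zygotes and ES cells. The mean log2 level of Ppp2ca was 12.27 ± 0.54 (SD, n = 3) in interphase zygotes, 11.91 ± 0.07 (n = 2) in 2-cell embryos and 12.48 ± 0.20 (n = 2) in ES cells, both within 1 SD of the zygote mean. It was 11.77 ± 0.54 in drug controls and 11.43 ± 0.77 in M phase transfer embryos. In interphase transfer embryos it was 9.66 ± 0.81 and in genomeless embryos 10.36 ± 2.13, with every array of both groups detected. These means were lower than in drug controls, but the genomeless and drug control samples overlapped. Ppp2ca was not called between the transfer groups or between drug controls and genomeless embryos.

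Zc3hc1 was detected on 5 of 6 zygote arrays, at 79.3, 38.1 and 19.4 in interphase (sample C not detected) and 43.2, 76.4 and 39.8 in mitotic zygotes. It was 3650 and 3229 in 2-cell embryos, 3823, 3826 and 3429 in drug controls and 22480, 20942, 4877 and 2354 in M phase transfer embryos. The lowest array of these 3 groups, M phase transfer D, was far above the highest zygote array. Interphase transfer embryos gave 706 and 0.8, the first of them detected, and genomeless embryos 22.8 and 4.0, neither detected. ES cells gave 3265 and 1627, within the unscaled range of the intact embryos in sample A and below it in sample B. The other kept probe of the gene was dimmer: it was detected on both 2-cell arrays (119 and 174), all 3 drug control arrays (100.3 to 246) and all 4 M phase transfer arrays (14.9 to 679), on ES sample B (148) and on no zygote, interphase transfer or genomeless array.

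Of the genes of trafficking and mitochondria, Pheta1 was detected on no zygote array, at 0.6, 1.5 and -0.9 in interphase and 5.7, 4.6 and 4.2 in mitotic zygotes. It was 3000 and 2155 in 2-cell embryos, 2633, 3682 and 3842 in drug controls and 20993, 17946, 3660 and 2194 in M phase transfer embryos. The 2 M phase transfer arrays of chip 5, the bright chip, were far above the rest. Interphase transfer embryos gave 111 and 2.5, with the first detected. Genomeless embryos gave -24.9 and 50.5, with the second detected. On that dim array, genomeless B, the unscaled 50.5 became a normalised log2 level of 10.51, so the genomeless level of Pheta1 rests on 2 very unlike values. ES cells gave 912 and 309, under both 2-cell arrays.

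Mtres1 was the least silent of the 8 genes before the 2-cell stage. It was detected on all 6 zygote arrays, at 426, 506 and 698 in interphase and 320, 460 and 363 in mitotic zygotes. It was 6781 and 5235 in 2-cell embryos, 5207, 6344 and 6144 in drug controls and 28714, 31362, 7425 and 4709 in M phase transfer embryos. Zygote RNA of this gene was thus present, though at a lower level than in every later intact embryo. Interphase transfer embryos gave 160 and 1.3 and genomeless embryos 1354 and 21.4, and both genomeless arrays passed detection. ES cells gave 2216 and 1089, between zygotes and 2-cell embryos.

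As a description of the choice, the normalised difference between 2-cell embryos and interphase zygotes was 3.62 for Mtres1 and 4.46 for Mfsd5 on the log2 scale, the smallest of the 8. It was 5.77 for Zc3hc1. For the genes on no interphase zygote array it was at least 98.9-fold for Guca1a, 88.0-fold for Timd2, 64.2-fold for Ppp2cb, 50.0-fold for Pheta1 and 43.8-fold for Alppl2. Here and below, "at least" sets the bright group's mean against a floor for a group in which no array detected the probe, the floor on an array being the lowest level among detected probes, or the level of the gene itself where this exceeded it. Medians over the 8 genes are given both with fitted values and with such genes at their bound, since a fitted difference against undetected signals is no exact size. Mitotic zygotes differ from interphase zygotes in time and in nocodazole. They had Guca1a and Alppl2 detected on 3 of 3 arrays against 0 of 3 in interphase zygotes. Both genes were near the floor there, at least 1.12-fold and 1.06-fold higher in mitotic zygotes, with no overlap between the samples. Timd2 and Pheta1 had no overlap either, with differences of 0.31 and 0.11 on the log2 scale. Timd2 was detected on 1 mitotic array alone and Pheta1 on no zygote array, so these are differences between signals at or near background. Mitotic arrays detected 7887 to 8131 probes against 6933 to 7787 on interphase arrays. The share of all genes with such a change was not counted. Of the 4587 genes detected on all 3 drug control arrays, 70.5% were detected on all 6 zygote arrays and 12.3% on none; of the 8 genes, 2 (Mtres1 and Mfsd5) were detected on all 6 and 2 (Ppp2cb and Pheta1) on none.

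Whether embryos without a genome reach the 2-cell levels was addressed by setting drug controls against genomeless embryos, both collected at 48 to 50 h. The drug control level was near that of the 2-cell embryos that chose the genes. Genomeless embryos held no genome, so their low level largely followed from the low zygote signals in the choice. Neither side of this comparison is thus independent of the choice. All 8 genes were higher in drug controls, by a median of 5.76 on the log2 scale (4.76 with undetected genes at their bound) against 0.03 over all genes, while 19.2% of the 8527 genes were called higher in this comparison (limma, Benjamini-Hochberg adjusted p below 0.05). The 4 genes detected on no genomeless array were at least 34.6-fold (Timd2, adjusted p = 8.94e-06), 30.6-fold (Guca1a, adjusted p = 1.34e-05), 23.7-fold (Zc3hc1, adjusted p = 5.56e-06) and 21.5-fold higher (Alppl2, adjusted p = 1.14e-08) in drug controls. Ppp2cb was higher by 5.99 ± 0.40 (SE; 2 samples against 2; adjusted p = 3.77e-07) and Mfsd5 by 5.13 ± 0.52 (adjusted p = 8.71e-06). Mtres1 was higher by 3.23 ± 0.37 (adjusted p = 2.44e-05) and was the only 1 of the 8 genes detected on both genomeless arrays. The groups did not overlap for any of the 8, although normalisation raised undetected signals on the dim genomeless array B (Timd2 to 8.25 and Guca1a to 8.33). Groups this small can separate by chance, and here and below the share of all genes without overlap was not counted. The fitted difference was 4.87 without genomeless sample A and 7.15 without genomeless sample B for Timd2, and 4.62 and 6.90 for Guca1a. Pheta1 was higher by 4.12 ± 0.94 (adjusted p = 0.00434), but by 1.81 without genomeless sample A and 6.44 without genomeless sample B. Most groups have 2 samples, nothing states that they came from separate days or animals, and p-values therefore measure only the spread between these samples, which may be technical.

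The transfer groups stood apart for all 8 genes, although interphase transfer sample A still had 4 of them detected and sample B none. All 8 were higher in M phase than in interphase transfer embryos, by a median of 5.76 on the log2 scale (5.02 with undetected genes at their bound) against 0.01 over all genes, and 17.8% of all genes were called higher. Among the membrane genes, Timd2, Alppl2 and Mfsd5 were detected on 4 of 4 M phase and 0 of 2 interphase transfer arrays, and were at least 22.0-fold (adjusted p = 3.39e-06), 20.1-fold (adjusted p = 7.48e-09) and 27.5-fold higher (adjusted p = 7.19e-07). Ppp2cb, also undetected in interphase transfer embryos, was at least 23.6-fold higher (adjusted p = 1.21e-07). Guca1a was higher by 5.84 ± 0.54 (SE; 4 samples against 2; adjusted p = 3.10e-06) and Zc3hc1 by 5.25 ± 0.48 (adjusted p = 3.01e-06). Without interphase transfer samples A and B in turn, Guca1a was higher by 6.44 and 5.25 and Zc3hc1 by 6.43 and 4.06. The groups did not overlap for any gene, interphase transfer sample A being the higher of its 2 samples for Zc3hc1 (8.65 against 6.28). Pheta1 was higher by 5.59 ± 0.82 (adjusted p = 0.000163) and Mtres1 by 6.46 ± 0.32 (adjusted p = 3.57e-08). Within chip 5 alone the 8 normalised differences were 4.23 to 6.15, and within chip 6 alone 5.51 to 6.99, undetected signals included.

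M phase transfer embryos were also set against genomeless embryos, and interphase transfer embryos against drug controls. These comparisons share their samples with those above and are no separate evidence. The genomeless and drug control levels in them also followed largely from the choice of the genes. All 8 genes were higher in M phase transfer than in genomeless embryos, with 20.4% of all genes called higher. The 4 genes undetected in genomeless embryos were at least 26.1-fold (Guca1a), 25.9-fold (Zc3hc1), 15.2-fold (Timd2) and 13.9-fold higher (Alppl2). Without genomeless samples A and B in turn the fitted difference was 3.69 and 5.96 for Timd2 and 4.38 and 6.67 for Guca1a. Ppp2cb was higher by 5.27, Mfsd5 by 5.13 and Mtres1 by 3.39 on the log2 scale. Pheta1 there was higher by 4.28 (adjusted p = 0.00108), but by 1.96 without genomeless sample A and 6.59 without genomeless sample B. All 8 genes were lower in interphase transfer embryos than in drug controls, with 17% of all genes called lower. For the 4 genes detected on interphase transfer array A the differences were -6.30 (Mtres1), -6.07 (Guca1a), -5.44 (Pheta1) and -5.12 (Zc3hc1), and without interphase transfer samples A and B in turn they were -6.67 and -5.48 for Guca1a and -6.30 and -3.93 for Zc3hc1. For the 4 genes undetected in interphase transfer embryos the level was at least 50.1-fold (Timd2), 38.7-fold (Ppp2cb), 31.1-fold (Alppl2) and 27.5-fold lower (Mfsd5).

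Interphase transfer embryos were compared with genomeless embryos to ask whether the transferred genome added RNA of these genes. None of the 8 was called higher, and 1, Mtres1, was called lower, with a difference of -3.07 ± 0.37 (SE; 2 samples against 2; limma adjusted p = 0.00243), while 0.34% of all genes were called lower. Mtres1 levels were 7.26 and 6.40 in interphase transfer samples A and B and 10.10 and 9.70 in genomeless samples, with no overlap. The mitotic zygotes, with a mean of 9.06, stood close to the genomeless embryos rather than to the interphase transfer embryos for this gene. Timd2 and Alppl2 were detected in neither group and get no difference here. The other 5 differences ran from -1.31 (Pheta1, 95% interval -3.33 to 0.71) to 0.64 (Zc3hc1, -0.55 to 1.82) and their groups overlapped. The Mtres1 call was lost under median scaling (-1.53, adjusted p = 1) and with array quality weights (adjusted p = 0.861). Without genomeless sample A Pheta1 was called lower too (-3.62, adjusted p = 0.000201), as was Timd2, for which both sides are background signals; the lone genomeless sample is there assumed to vary like the other groups. Without the dim arrays Zc3hc1 was called higher (2.27, adjusted p = 0.0183).

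**Figure D2:**
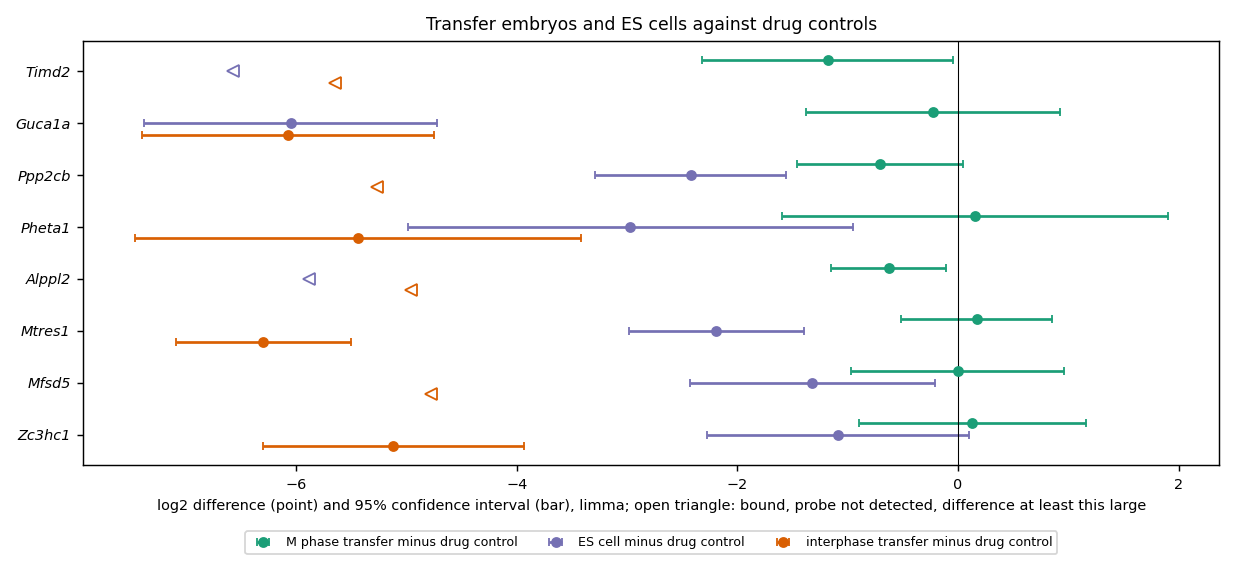
Differences from drug controls: the horizontal axis gives the log2 difference of M phase transfer embryos, ES cells and interphase transfer embryos from drug controls (points) with 95% confidence intervals (bars) or, where no array of the group detected the probe, the bound (open triangles), and the vertical axis the 8 genes. M phase transfer embryos lie at -1.18 to 0.17, the measured interphase transfer values at -6.30 to -5.12, and the measured ES cell values from -6.05 to -1.09.

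Drug controls were set against M phase transfer embryos to ask how far the transferred genome reached the levels of intact embryos. None of the 8 genes was called in either direction (limma, adjusted p from 0.492 to 1, with Timd2 and Alppl2 at an unadjusted p below 0.05), and 0.258% of all genes were (22 genes, with 672 at an unadjusted p below 0.05). The differences ran from -1.18 (Timd2, 95% interval -2.32 to -0.05) to 0.17 (Mtres1, -0.52 to 0.85), with a median of -0.12. For Timd2 and Ppp2cb (-0.71, interval -1.46 to 0.04) every M phase transfer sample was below every drug control sample. Alppl2 had -0.63 (interval -1.15 to -0.11). Mfsd5, Zc3hc1, Pheta1 and Guca1a had differences of 0.00, 0.13, 0.15 and -0.23, and the interval of Pheta1 reached from -1.60 to 1.90. With array quality weights 3 of the genes were called lower, Timd2 (-1.73, adjusted p = 0.00171), Ppp2cb (-0.73, adjusted p = 0.0321) and Alppl2 (-0.73, adjusted p = 0.0175), and 1275 genes in all were called.

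The chip moved with part of these differences. Timd2 was 11.41, 11.08, 12.72 and 12.56 in M phase transfer samples A to D, of which A and B were on chip 5 and C and D on chip 6, so chip 6 was higher by 1.39 on the log2 scale. Guca1a was 12.10, 12.23, 13.47 and 13.08, higher on chip 6 by 1.11. Mfsd5 was higher on chip 6 by 0.66. Samples of the same chip lay close to each other for these 3 genes and the chips did not overlap. Alppl2 differed by 0.29 and Ppp2cb by 0.08 in the same direction, while Mtres1, Zc3hc1 and Pheta1 were lower on chip 6 by 0.23, 0.33 and 0.36. Within chip 6, which also held drug control array C, the 8 differences between M phase transfer embryos and drug control ran from -0.56 to 0.18, and Timd2 was at -0.53. Without the chip 5 arrays, a choice made after seeing the data, Timd2 differed by -0.49 and still none of the 8 genes was called. The labels do not say whether the chips held embryos of different days or donors, and the chip's part in the Timd2 difference was not tested further.

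**Figure D3:**
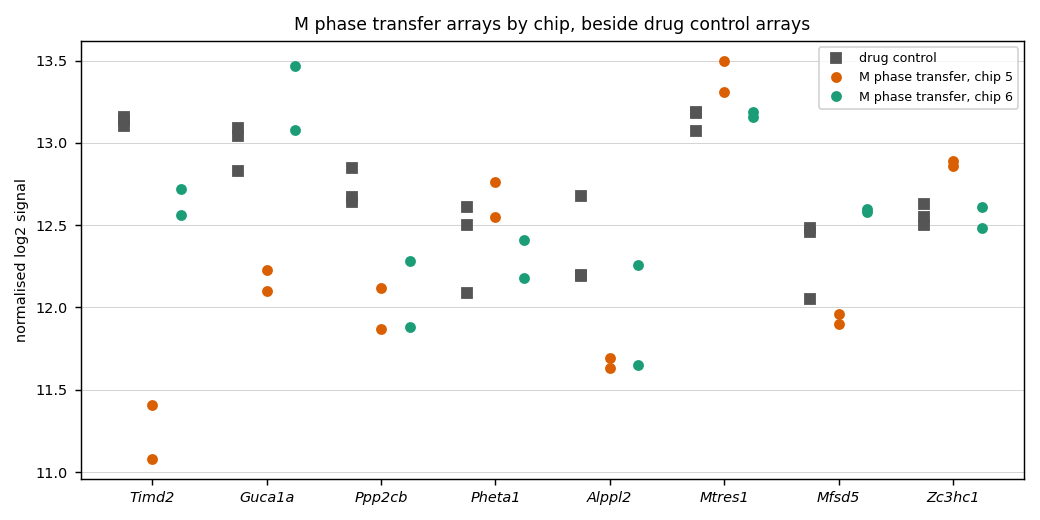
M phase transfer arrays by chip: the horizontal axis gives the 8 genes, the vertical axis the normalised log2 signal, squares are drug control arrays and circles M phase transfer arrays of chip 5 or 6. For Timd2 the chip 5 arrays (11.08 and 11.41) lie below the chip 6 arrays (12.56 and 12.72) and below all drug controls; for Mtres1 all arrays lie between 13.07 and 13.50.

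ES cells separated the 8 genes. Of the 8 genes set against drug controls, 6 were called lower in ES cells and 2 were not called, while 7.39% of all genes were called lower. The median difference was -2.70 against -0.02 over all genes. The high drug control level followed largely from the choice, so the count of genes lower in ES cells is not independent of it. Timd2 was at least 95-fold lower (adjusted p = 4.92e-06) and Alppl2 at least 59.0-fold lower (adjusted p = 9.39e-09), both undetected on both ES arrays. Guca1a had a difference of -6.05 ± 0.62 (SE; 2 samples against 2; adjusted p = 1.93e-05). Ppp2cb (-2.42 ± 0.40, adjusted p = 0.00106) and Mtres1 (-2.19 ± 0.37, adjusted p = 0.00116) also fell, to mean ES levels of 10.33 and 10.94 against 12.75 and 13.13 in drug controls. Without ES samples A and B in turn Ppp2cb had -1.75 and -3.09. Pheta1 had -2.97 ± 0.94 (adjusted p = 0.0462). Mfsd5 (-1.32, 95% interval -2.43 to -0.21, adjusted p = 0.11) and Zc3hc1 (-1.09, interval -2.28 to 0.10, adjusted p = 0.234) were not called. The Pheta1 call was lost when any 1 sample was left out, with adjusted p of 0.0699 and 0.253 without ES samples A and B, and 0.131 and 0.215 without drug control A and the averaged B and C. It was also lost with the chip as a random block (adjusted p = 0.0797), the neqc correction (0.102), the deposited mean-scaled values (0.0951), no detection filter (0.0967) and a replicate block (0.0809). The Mtres1 call was lost under median scaling (adjusted p = 0.217), and Mfsd5 (-0.69 without ES sample B) rested on the ES sample taken. Calls were also gained. Mfsd5 was called lower with 21 separate arrays (adjusted p = 0.031) and with array quality weights (0.0452). Zc3hc1 was called lower with array quality weights (0.0431) and with the mean of all its probes (0.0351).

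Set against the same ES cells, M phase transfer embryos gave 6 genes higher and 2 not called, with 8.1% of all genes called higher. Timd2 was at least 41.8-fold higher (adjusted p = 4.08e-06) and Alppl2 at least 38.1-fold higher (adjusted p = 5.22e-09) in M phase transfer embryos. Guca1a was higher by 5.82, Pheta1 by 3.12, Mtres1 by 2.36 and Ppp2cb by 1.71. Mfsd5 (1.32, adjusted p = 0.0576) and Zc3hc1 (1.22, adjusted p = 0.0971) did not pass. Mfsd5 was called with 21 separate arrays (adjusted p = 0.0325) and Zc3hc1 with array quality weights (adjusted p = 0.00929). Without ES sample A Ppp2cb was not called (1.04, adjusted p = 0.0934) and Mfsd5 was (1.94, adjusted p = 0.0372), and without ES sample B Pheta1 was not called (2.44, adjusted p = 0.163) and Mfsd5 stood at 0.69.

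Detection over all genes shows how common this split is. Of the 4587 genes detected on all drug control arrays, 80.1% were detected on all ES arrays, as were 6 of the 8 genes, and 8.85% on none, as were Timd2 and Alppl2. All 8 were detected on all M phase transfer arrays, as were 75.5% of these genes. On no interphase transfer array were 27.8% of the genes and 4 of the 8 (Timd2, Ppp2cb, Alppl2, Mfsd5), and on no genomeless array 37.2% and 4 of the 8 (Timd2, Guca1a, Alppl2, Zc3hc1). The joint pattern of Timd2 and Alppl2 was detection on all drug control and M phase transfer arrays and on no ES, genomeless or interphase zygote array. It was shared by 57 genes (1.24%), these 2 included. The pattern is taken from these 2 genes and leaves out mitotic zygotes, where both had detected arrays. Its share therefore says little about how unusual they are. The genes lowest in ES cells, Timd2, Alppl2 and Guca1a, are those whose printed windows hold no GGGCGG and have CpG ratios of 0.39 or less. Pheta1, Mtres1, Mfsd5 and Zc3hc1, detected at 309 to 3265 on every ES array, all have GGGCGG and CpG ratios of 0.60 or more. The windows compared differ in position, as those of Guca1a and Alppl2 lie inside the gene. GC percent did not follow the split, since Zc3hc1 had the lowest of the printed windows. This is a description of 7 genes chosen for their signals and carries no test.

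Genes of the pathways around the 8 were taken from lists of general knowledge. Over all genes tested, 17.8% were higher and 11.4% lower in M phase than in interphase transfer embryos, the background for each count that follows, and no list was tested against it. Of 20 tested genes of protein phosphatase 2A, the enzyme of Ppp2cb, 1 was higher and 4 were lower in M phase than in interphase transfer embryos. The regulatory subunit gene Ppp2r5a was at least 1.74-fold higher (adjusted p = 0.000672), while Arpp19, whose product inhibits the phosphatase in mitosis, fell by 2.60 (adjusted p = 0.00464) and Ppme1, a methylesterase of the catalytic subunit, fell by 2.43 (adjusted p = 0.00137). Ppp2ca itself was not called (1.77 ± 0.67, adjusted p = 0.0625). Of 7 genes of TIM receptors, ferritin and iron uptake, 2 were higher, the transferrin receptor Tfrc (2.69, adjusted p = 0.0165) and the iron transporter Slc11a2 (adjusted p = 0.00606). Slc11a2 was undetected in interphase transfer embryos, and no bound could be set for its difference. The other TIM receptor gene called, Timd4, was lower (-1.33, adjusted p = 0.0244). It was detected on 1 of 4 M phase and 1 of 2 interphase transfer arrays, and these groups overlapped. Timd4 had a mean of 9.90 in interphase zygotes and 9.65 in genomeless embryos against 7.19 in 2-cell embryos, the reverse of Timd2. Havcr1 was not called (-0.63, adjusted p = 0.126).

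Of 16 tested genes of mitochondrial gene expression, the setting of Mtres1, 5 were higher and none lower in M phase transfer embryos. The mitochondrial RNA polymerase gene Polrmt was at least 8.13-fold higher (adjusted p = 6.36e-07), the elongation factor gene Tufm higher by 2.71 (adjusted p = 0.00765) and the transcription factor gene Tfam at least 1.82-fold higher (adjusted p = 0.00222). Mterf1a was higher by 2.01 (adjusted p = 0.0474). Of 9 genes around the SCF ligase, cyclin B1 and the nuclear basket, 2 were higher and 2 lower. Cdk1, the kinase partner of cyclin B1, was at least 5.34-fold higher (adjusted p = 8.81e-05) and the SCF subunit gene Skp1 fell by 3.54 (adjusted p = 2.29e-05). The other genes called in this list were the SCF genes Skp2, higher by 2.27 (adjusted p = 0.0173), and Cul1, which fell by 2.00 (adjusted p = 0.0242). Of 15 genes of OCRL and endosomal recycling 2 were higher and 4 lower. Appl1, an endosomal adaptor gene, was higher by 1.80 (adjusted p = 0.0182), the sorting nexin gene Snx1 at least 1.39-fold higher (adjusted p = 0.00972), the Rab gene Rab14 fell by 1.58 (adjusted p = 0.000613) and Snx2 was not called (-1.38, adjusted p = 0.212). Of 10 other Mfsd genes 3 were higher, among them Mfsd10 at least 2.18-fold (adjusted p = 0.000161) and Mfsd11 at least 1.42-fold (adjusted p = 0.000476). Mfsd6 was lower (-2.57, adjusted p = 0.00412) and Mfsd9 was not called (-2.03, adjusted p = 0.0546). None of 3 guanylate cyclase and activator genes, Guca1b, Npr2 and Gucy1a1, was called. The 1 other alkaline phosphatase gene tested, Alpl, did not differ detectably between the transfer groups (-0.08, adjusted p = 0.874) and was higher in ES cells than in drug controls by 1.28 (adjusted p = 0.0258; 8.3% of all genes were higher there), the opposite direction to Alppl2.

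Of 13 tested members of a list of other 2-cell activation genes, 6 were higher in M phase than in interphase transfer embryos and none lower (median 1.55), against 17.8% and 11.4% of all genes. In ES cells 9 were lower and 1 higher than in drug controls, against 7.39% and 8.3% of all genes. Pramel7 was at least 8.41-fold higher in M phase transfer embryos (adjusted p = 6.82e-08) and the cyclin E gene Ccne1 higher by 4.48 (adjusted p = 4.79e-05). Klf5, a transcription factor of the early embryo, was at least 6.33-fold higher (adjusted p = 1.21e-05), and the nuclear receptor gene Nr5a2 was higher by 3.50 (adjusted p = 0.000175). Klf5 did not differ detectably between ES cells and drug controls (-0.22, adjusted p = 0.893), while Pramel7 was at least 41.1-fold lower in ES cells (adjusted p = 3.87e-08).

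**Figure D4:**
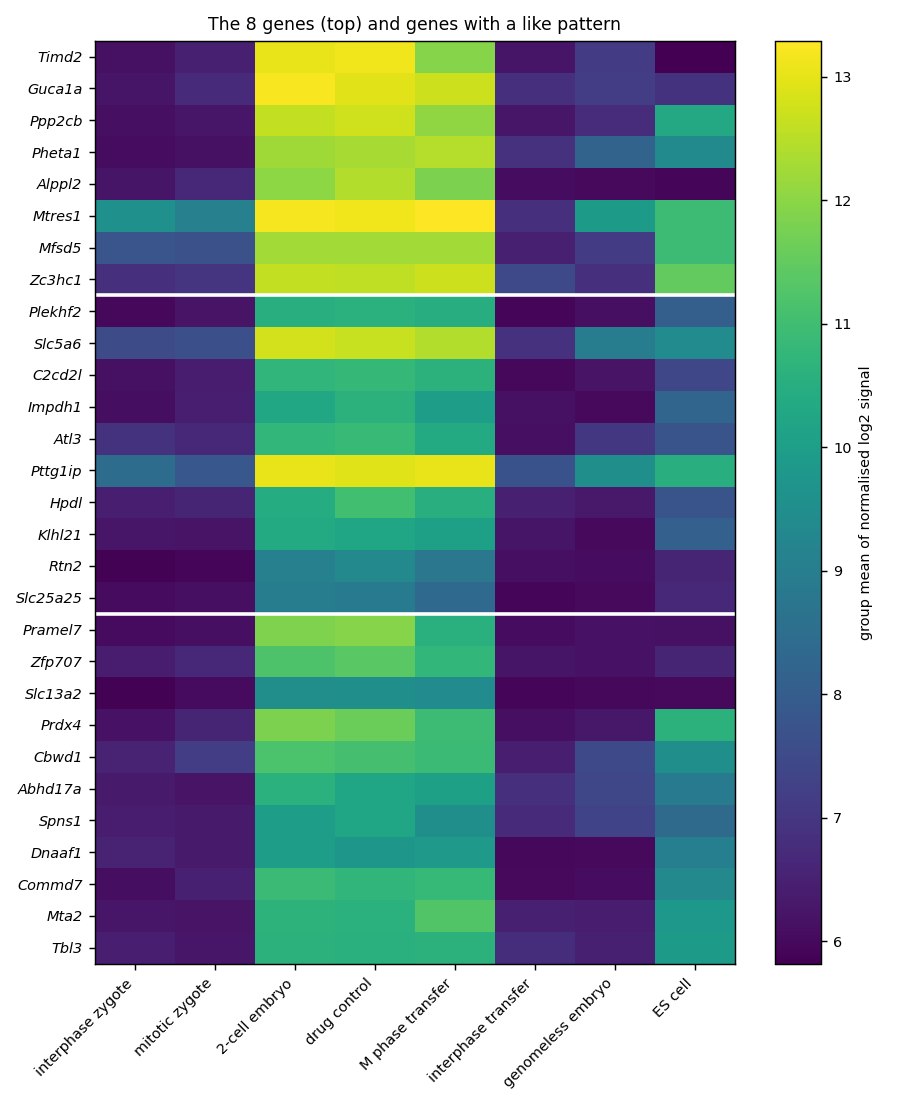
Group means of the 8 genes (top block), the 10 genes whose levels followed the mean of the 8 most closely (middle block) and the genes closest to single members (bottom block): each line is a gene, the horizontal axis gives the 8 groups, and colour the mean normalised log2 signal. At the right edge, Pramel7, Zfp707 and Slc13a2 share the low ES cell level of Timd2, Alppl2 and Guca1a.

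The genes whose levels over the 19 samples followed the mean of the 8 most closely, by Pearson correlation, were Plekhf2 (r = 0.987), Slc5a6 (0.986), C2cd2l (0.985) and Impdh1 (0.985), followed by Atl3, Pttg1ip, Hpdl, Klhl21, Rtn2 and Slc25a25 (0.977 to 0.981). Since the samples fall into groups with the genes on and groups with them off, these values mostly describe that split, and the samples share chips. Pramel7 (0.987) was closest to Timd2, and Slc13a2, a sodium-coupled carboxylate transporter gene, was closest to both Alppl2 (0.995) and Guca1a (0.984). Zfp707 stood next for all 3 of these genes (0.981 to 0.989). Prdx4, a peroxiredoxin gene, and Cbwd1 were closest to Ppp2cb (both 0.982), Mta2 and Tbl3 to Zc3hc1 (0.986 and 0.984), and Dnaaf1 and Commd7 to Mfsd5 (0.985 and 0.982). Abhd17a and Spns1 were closest to Pheta1 (0.964 and 0.963), and the vitamin transporter gene Slc5a6 and Pttg1ip to Mtres1 (0.957 and 0.954). The 2 closest genes named for each of the 3 genes low in ES cells were not among those of the other 5.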

How the data were processed

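Expression was measured on Illumina bead arrays, and GenomeStudio is the tool in the submitters' processing notes, without a version. The authors deposited, per the file headers, a probe signal, which is a background-subtracted intensity without scaling between arrays, and a detection p-value for each probe on each array. A deposited table of the same intensity scaled to a mean of 198.09 on every array served as an alternative. The 8 genes and all gene lists were chosen with earlier results of these data known. Signals were corrected with normexp (offset 50), quantile-normalised and put on the log2 scale with limma 3.58.1 in R 4.3.3, from the deposited intensities. The filter left 11541 of 24613 probes, those with a detection p-value below 0.01 on 2 or more arrays. Of all probes, 20984 carried 1 gene symbol, 1 several and 3628 none, and each of the 8527 genes was read by its kept probe with the highest mean. Repeat arrays, with an SD of log2 differences under 0.2, were averaged after the data were seen, so 19 samples with 11 residual degrees of freedom entered 1 limma model with a mean per group. The 8 comparisons were adjusted by Benjamini-Hochberg over all 8527 genes and called below 0.05; the procedure was tested on simulated data. Precision is limited by 2 to 4 samples a group. Beside the 8 genes the text names, from each list, up to 4 with the largest differences between M phase and interphase transfer embryos, the 10 genes most like the mean of the 8 and the 2 most like each. Samples with the same letter in different groups did not deviate together (mean correlation 0.01 over 57 pairs), so letters were not taken as pairs. Alternatives changed the background correction, scaling, filter, probe rule, chip and replicate terms, weights and samples. Promoter windows are from RefSeq (GRCm38.p6).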

Additional observations from a re-analysis of the deposited data

Results flagged for a closer look

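Among the 4 M phase transfer samples, Alppl2 in sample C (normalised log2 level 12.26) stood apart from the other 3, which lay between 11.63 and 11.69. Its gap to the nearest sample was 0.908 of the group's range, above the 95% critical value of Dixon's test for 4 samples. Chance gives such a gap in about 1 of 20 groups, and 8 genes were examined in this group. Sample D, on the same chip as sample C, was at 11.65.

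A second kept probe of Zc3hc1, which the comparisons did not use, gave signal in groups where the gene was high and none on the 6 zygote arrays. Its median unscaled signal was 146.75 in 2-cell embryos and 122.3 in drug controls, against -3.7 to 3.6 on zygote arrays. A further probe of the gene was detected on 1 array alone, M phase transfer C (20.9).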

How the results depend on the processing

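The 8 genes were called in every alternative tried for drug control against genomeless, M phase transfer against genomeless, M phase against interphase transfer, and interphase transfer against drug control. Over 1152 values of single genes none changed sign while called, 1056 kept their direction and their side of the threshold, 16 lost their call and 13 gained one. The other 67 changed sign without a call or were within-chip values that moved by more than the spread between samples. In interphase transfer against genomeless embryos the 1 gene called became 0 under median scaling and with array quality weights, 2 without the dim arrays (Zc3hc1 added, 2.27, adjusted p = 0.0183) and 1 to 3 when a sample was left out (the 3 include Timd2, undetected on all 4 arrays). In M phase transfer against drug control 0 became 3 with array quality weights. In ES cells against drug control the count of 6 ranged from 5 to 8, and in M phase transfer against ES cells from 5 to 7. A fit with a replicate block by letter gave 5 in both, as Pheta1 was lost (adjusted p = 0.0809 and 0.0504), changed no other call of the 8 genes, and moved the genes called in interphase transfer against genomeless from 78 to 25. Without the M phase transfer arrays of chip 5, an alternative chosen after seeing the data, Pheta1 was lost against ES cells (adjusted p = 0.0739). The mean over all probes of Zc3hc1 gave 3.37 for M phase against interphase transfer.

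Counts over all genes moved more. They ranged from 990 to 3396 (2615 as reported) for drug control against genomeless, 1034 to 3646 (2922) for M phase against genomeless, 0 to 937 (78) for interphase transfer against genomeless, 1036 to 2923 (2483) for M phase against interphase transfer, 0 to 1275 (22) for M phase against drug control, 830 to 2996 (2265) for interphase transfer against drug control, 665 to 1953 (1338) for ES cells against drug control and 882 to 1917 (1519) for M phase against ES cells. Median scaling shifted the median of all genes to 0.18, 0.46, 0.13, 0.33 and 0.28 in the first 5 of these and to 0.13 for ES cells against drug control. With it the share of calls that were higher was 98.6% (62.7% as reported), 98.5% (59.7%), 98.2% (61%), 1.81% (35.8%) and 77.6% (52.9%) for drug control and M phase against genomeless, M phase against interphase transfer, interphase transfer against drug control and ES cells against drug control. The deposited mean-scaled values gave 70.9% for M phase against genomeless, where they shifted the median to 0.22. The cause was not tested. The chip as a fixed block could not be fitted for ES cells, and signals at background limit what the dim arrays can show.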
